A study of Arabidopsis thaliana with 9 samples.

Results

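Transcripts of the plastid genome of Arabidopsis thaliana were measured in whole plants of line774 and line1135, which the series title calls epigenetic mutants, and of the WT-control. The Affymetrix ATH1 array holds several short probes for every transcript, summed up as a probe set, and those of the plastid genes stand in a block of consecutive probe set numbers. Of the 119 probe sets in that block, 77 carry the name of a gene of the plastid genome and are described here, out of 22746 tested on the array. The other 42 were set aside, 24 because the annotation used here names no gene for them, 12 because they name a locus on a nuclear chromosome and 6 because they name a mitochondrial gene. The 77 probe sets read 76 genes, with 2 probe sets for rps12, and 8 of them name a gene present in both copies of the plastid inverted repeat.

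Each group had 3 arrays, 9 in all: line774, line1135 and WT-control. The labels do not name the mutated gene of either line, and the same T-DNA knock-out label stands on all 9 samples, WT-control included, so the genotypes could not be checked against a targeted transcript. Plants of all groups were sown at 50 seeds per plate and grown for 17 days at 21 °C with 16 h of light and 8 h of darkness, to growth stage 1.04, on a medium with sucrose. The labels leave unsaid whether replicates were grown separately, and p-values therefore cover the spread between arrays alone, part of which may be technical.

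A plastid keeps a small genome of its own, whose genes code for core subunits of the photosynthetic complexes and for parts of the machinery that transcribes and translates them. Most photosynthesis genes are read by a bacterial-type RNA polymerase whose core is itself plastid-encoded, while nuclear-encoded phage-type polymerases read housekeeping genes such as the rpoB operon, clpP and accD. Many plastid genes lie in operons that are transcribed together, and the level of each transcript is then set largely by processing and stability. Plastid mRNAs lack the long stable poly(A) tails of nuclear mRNAs, and the labelling kit used here primes 3′ ends. Changes are therefore taken between arrays for the same probe set. Where a probe set is called the brightest or signals are summed, this does not rank transcript amounts between genes.

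All 77 probe sets were above the highest of 27 Bacillus control probe sets on every array, that highest control reading 5.36 to 13.4. Together they took 3.79, 3.32 and 3.10% of the summed signal on the line774 arrays, 3.83, 3.62 and 4.11% on the line1135 arrays and 3.59, 3.62 and 3.96% on the WT-control arrays. The median signal over all probe sets lay between 35.3 and 37.4 on the 9 arrays. The ratio of the 3′ to the 5′ GAPDH control probe set, a sign of RNA quality and labelling, was 1.48, 1.42 and 1.66 in line774, 1.61, 1.36 and 1.82 in line1135 and 1.52, 1.54 and 1.98 in WT-control. The same ratio for actin was far higher, at 17.2 to 31.7 on the 9 arrays, with 22.7, 20.9 and 27.9 in line774, 31.7, 18.0 and 17.2 in line1135 and 26.2, 23.9 and 30.4 in WT-control. The part of either ratio in the differences below was not tested. The number of arrays limits the precision of every value.

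Most plastid transcripts did not pass the test in either line. Against WT-control, 4 of the 77 were lower and 0 higher in line774 by the test over all probe sets, and 3 were higher and 0 lower in line1135. A transcript passed at a limma adjusted p (Benjamini-Hochberg over 22746 probe sets) under 0.05, and a change is the difference in mean log2(signal + 16), given ± its SE with n = 3 arrays in each group. No plastid transcript reached a change of 2-fold. The 4 that were lower in line774 code for photosynthetic subunits: psbC of photosystem II, ndhJ and ndhK of the NADH dehydrogenase-like (NDH) complex, and atpI of the ATP synthase. The 3 that were higher in line1135 were the ribosomal protein genes rpl20 and rpl16 and ycf3, whose product assembles photosystem I.

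The 4 transcripts lower in line774 made up 5.19% of the 77, against 6.01% of all probe sets tested, and the 0 higher stood against 6.60%. No plastid probe set was among the 2.00% of all probe sets that passed at 2-fold or more. At an unadjusted p under 0.05, 17 of the 77 passed (22.1%, against 25.3% of all probe sets). The direction was more uneven than the calls: 63 of 77 changes (81.8%) were below 0, against 45.5% of all probe sets, with a median of -0.16 over the 77 and 0.02 over all probe sets. All 3 line774 arrays lay below all 3 WT-control arrays for 11 plastid probe sets (14.3%, against 13.7% of all probe sets), and no plastid probe set had all 3 above them (against 17.0%). In whole plants, fewer plastids or green cells and less of a transcript per plastid cannot be told apart.

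The line774 arrays differed among themselves. The median difference from the WT-control mean over the 77 probe sets was 0.00, -0.16 and -0.31 for line774 replicates 1, 2 and 3, with 38, 62 and 68 probe sets below that mean. It was 0.07, -0.01 and 0.16 for the line1135 arrays and -0.04, -0.07 and 0.09 for the WT-control arrays. Line774 replicate 1 thus lay within the range of the WT-control arrays, and replicates 2 and 3 lay below it. Without line774 replicate 3, the median change in line774 was -0.09 and 55 of 77 changes were negative.

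**Figure D1:**
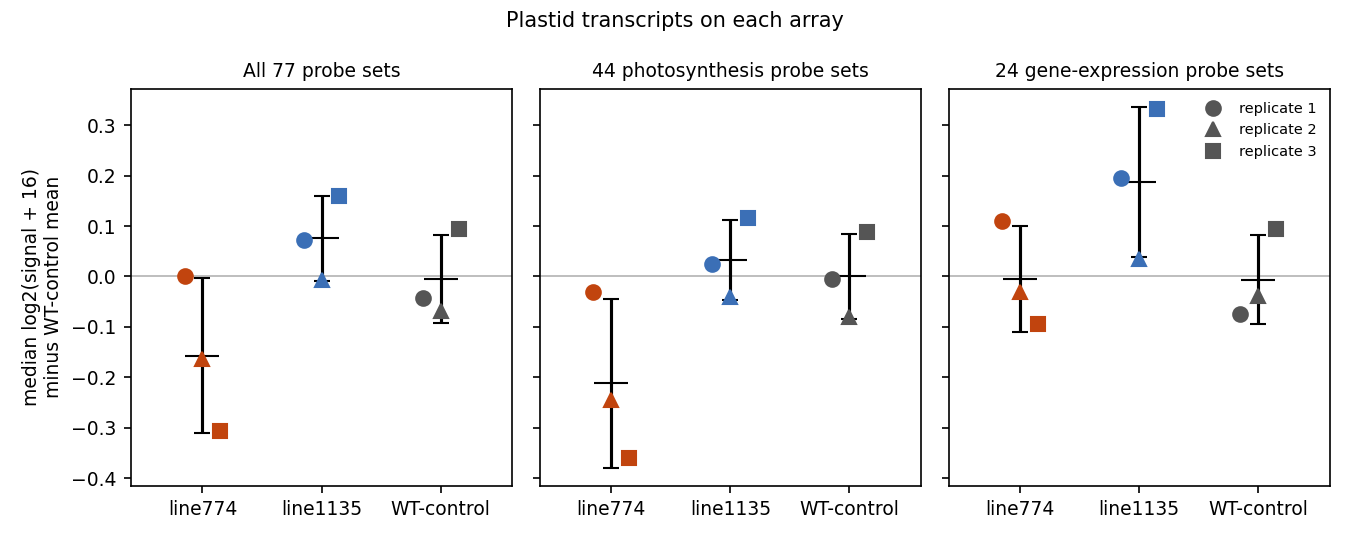
Median log2 difference from the WT-control mean on each array, over all 77 plastid probe sets, the 44 of photosynthesis genes and the 24 of gene-expression genes; each point is an array, horizontal bars are means of 3 and error bars their SD. Line774 spreads from 0.00 to -0.31 over all 77. On each array of both lines the photosynthesis median lies lower than the gene-expression median.

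In photosystem II, the complex that splits water, psbC codes for the inner antenna protein CP43. Its signal was 1489, 1347 and 1207 in line774 and 1753, 1793 and 1787 in WT-control, so the groups did not overlap, and its change of -0.40 ± 0.09 passed (adjusted p = 0.0112). At the threshold of 0.05 this call held under every other normalization, filter, model and choice of arrays tried, with adjusted p between 0.00403 and 0.0409, but it does not meet a 2-fold minimum or a threshold of 0.01. psbD, which codes for the reaction centre protein D2 and lies upstream of psbC in the same operon, read 429, 387 and 240 in line774 and 561, 417 and 524 in WT-control. Line774 replicates 2 and 3 lay below all WT-control arrays, and the change of -0.52 ± 0.18 did not pass (adjusted p = 0.0874). psbB, for the other inner antenna protein CP47, read 970, 760 and 563 in line774 and 1099, 972 and 1462 in WT-control. Line774 replicate 1 lay just under the lowest WT-control array, and the change of -0.63 ± 0.19 just missed the threshold (adjusted p = 0.0531). psbA, for the reaction centre protein D1, read 4679, 4297 and 3689 in line774 and 4183, 4554 and 5725 in WT-control, a change of -0.18 ± 0.12 (adjusted p = 0.417) with overlapping groups. All 15 photosystem II changes were negative in line774, between -0.63 and -0.08, with a median of -0.24, and psbC was the only one to pass.

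The NDH complex, which passes electrons from ferredoxin to plastoquinone in cyclic electron flow, held the pair ndhK and ndhJ, neighbours in one operon. ndhJ read 562, 447 and 474 in line774 and 645, 593 and 769 in WT-control, a change of -0.42 ± 0.11 (adjusted p = 0.0251) with no overlap. ndhK read 290, 253 and 166 in line774 and 360, 303 and 364 in WT-control, also without overlap, a change of -0.54 ± 0.16 (adjusted p = 0.0483). The lowest ndhK value came from line774 replicate 3, and line774 replicate 1 was close to the lowest WT-control array. All 11 NDH changes were negative in line774, with a median of -0.23, and 2 passed. Without line774 replicate 3, 9 of the 11 were negative and the median was -0.09. ndhD, the brightest probe set of the class, changed by -0.12 ± 0.11 (adjusted p = 0.592).

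In the ATP synthase, atpI codes for a membrane subunit of the proton channel. Its probe set read 41.8, 46.1 and 24.1 in line774 and 69.9, 56.6 and 80.5 in WT-control, a change of -0.69 ± 0.18 (0.621-fold, adjusted p = 0.0287). The groups did not overlap, but signals this low are pulled toward no change by the offset of 16. All 6 ATP synthase changes were negative in line774, with a median of -0.27, and atpI was the one that passed. Without line774 replicate 3 that median was -0.11. The change of atpB, for the catalytic beta subunit, was -0.16 ± 0.13 (adjusted p = 0.501).

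Photosystem I and the cytochrome b6f complex had no transcript that passed in line774, although all 5 and all 6 of their changes were negative. Their medians were -0.18 and -0.13, and without line774 replicate 3 they were -0.11 for photosystem I and -0.10 for cytochrome b6f, with 5 of 5 and 5 of 6 changes negative. psaA, for a reaction centre protein of photosystem I, read 837, 691 and 339 in line774 and 1113, 756 and 746 in WT-control, a change of -0.54 ± 0.28 (adjusted p = 0.257), of which line774 replicate 3 gave the lowest value. psaB, for its partner protein, changed by -0.18 ± 0.09 (adjusted p = 0.272), and petB, for cytochrome b6, by -0.11 ± 0.11 (adjusted p = 0.612). rbcL, for the large subunit of the carbon-fixing enzyme Rubisco, read 548, 467 and 523 in line774 and 552, 481 and 332 in WT-control. Its change of 0.19 ± 0.15 (adjusted p = 0.492) was the single positive one among the 44 photosynthesis probe sets, and WT-control replicate 3 was the low array there.

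The calls in line774 moved with single arrays. Of the 77, 12 were lower without line774 replicate 1, 2 without line774 replicate 2, 1 without line774 replicate 3, and 1 without WT-control replicate 1 or replicate 3. Over all alternatives the adjusted p of ndhJ lay between 0.0112 and 0.0955, that of atpI between 0.00968 and 0.107, and that of ndhK between 0.0170 and 0.144.

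In line1135, the 3 transcripts that were higher made up 3.90% of the 77, against 6.74% of all probe sets, and the 0 lower stood against 6.86%. None was among the 2.29% of probe sets that passed at 2-fold or more, and 7 of the 77 passed at an unadjusted p under 0.05 (9.09%, against 26.4% of all probe sets). The median change was 0.08 over the 77 and 0.02 over all probe sets, and 52 of 77 changes (67.5%) were above 0, against 54.1%. All line1135 arrays lay above all WT-control arrays for 9 plastid probe sets (11.7%, against 16.5%), and below them for 0 (against 14.4%).

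rpl20, for a protein of the large ribosomal subunit, read 426, 318 and 301 in line1135 and 233, 207 and 242 in WT-control, a change of 0.57 ± 0.15 (1.49-fold, adjusted p = 0.0302). rpl16, for another protein of that subunit, read 575, 531 and 613 in line1135 and 404, 423 and 454 in WT-control, a change of 0.41 ± 0.12 (adjusted p = 0.0466). The groups did not overlap for either gene. In line774 rpl20 read 362, 283 and 240 (0.34 ± 0.15, adjusted p = 0.192) and rpl16 read 492, 471 and 341 (0.01 ± 0.12, adjusted p = 0.981). Of the 9 large-subunit genes, 8 changes were positive in line1135, with a median of 0.24, and 2 passed. The 11 small-subunit probe sets had 10 positive changes, with a median of 0.16, and 0 passed. rps4, the brightest of these, changed by 0.19 ± 0.10 (adjusted p = 0.29), and rpl2, the brightest of the large subunit, by 0.08 ± 0.10 (adjusted p = 0.681).

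ycf3 read 246, 220 and 267 in line1135, against 176, 159 and 160 in WT-control, a change of 0.52 ± 0.14 (adjusted p = 0.0323) with every line1135 array above every WT-control array. In line774 it read 189, 207 and 130, on either side of WT-control (0.06 ± 0.14, adjusted p = 0.862). ycf1, for a subunit of the protein import apparatus of the inner envelope, read 892, 811 and 1200 in line1135 and 648, 740 and 709 in WT-control. Its groups did not overlap, but the change of 0.44 ± 0.15 did not pass (adjusted p = 0.0821). rbcL read 541, 613 and 585 in line1135 and, as above, 552, 481 and 332 in WT-control, a change of 0.37 ± 0.15 (adjusted p = 0.141) with overlapping groups.

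The line1135 calls were lost when single arrays were left out, while the changes stayed between 0.42 and 0.66 for rpl20, 0.46 and 0.59 for ycf3 and 0.36 and 0.46 for rpl16. Without WT-control replicate 2, WT-control replicate 3 or line1135 replicate 1, 0 of the 77 were higher. Without line1135 replicate 3 rpl20 alone was, and without WT-control replicate 1 all 3 calls were lost and rbcL alone passed. Over all alternatives the adjusted p lay between 0.00973 and 0.103 for rpl20, between 0.00437 and 0.109 for ycf3 and between 0.00668 and 0.147 for rpl16. The rpl16 call was also lost with either median scaling and with the replicate number as a block.

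**Figure D2:**
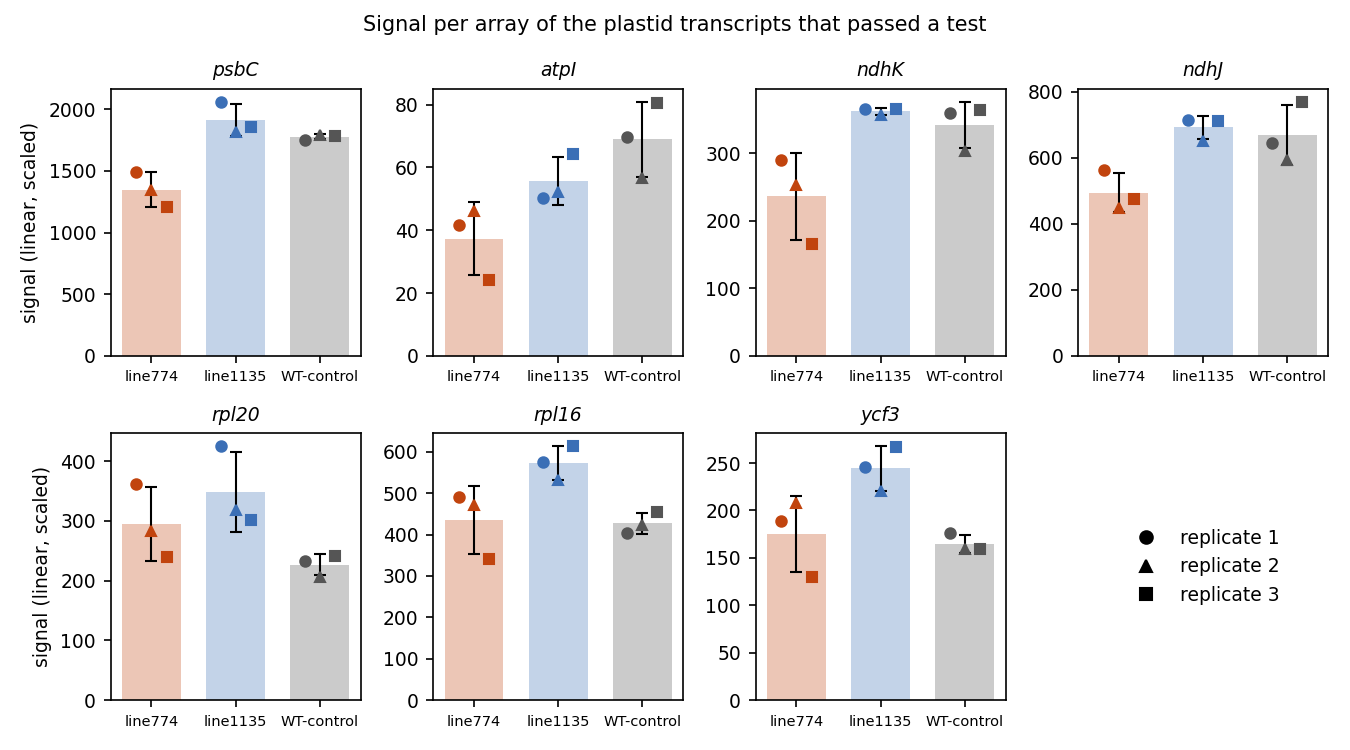
Signal on each array (linear axis from 0, arbitrary units) of the plastid transcripts that passed a test in any comparison; points are arrays, bars means of 3 and error bars the SD. For psbC, ndhJ, ndhK and atpI all line774 points lie below all WT-control points, and for rpl20, ycf3 and rpl16 all line1135 points lie above them.

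The lines were also compared with each other, which uses no WT-control array in the difference itself. psbC and ndhJ were higher in line1135 than in line774, 2 of the 77 (2.60%, against 1.13% of all probe sets), and 0 were lower (against 0.870%). psbC read 2062, 1819 and 1860 in line1135 and 1489, 1347 and 1207 in line774, a difference of 0.50 ± 0.09 (adjusted p = 0.0129). ndhJ read 713, 650 and 711 in line1135 and 562, 447 and 474 in line774, a difference of 0.48 ± 0.11 (adjusted p = 0.0499). For both genes all line1135 arrays lay above all line774 arrays, and the change of line1135 from WT-control did not pass, at 0.10 ± 0.09 for psbC (adjusted p = 0.507) and 0.05 ± 0.11 for ndhJ (adjusted p = 0.816). None of the 77 was among the 0.602% of probe sets that passed at 2-fold or more between the lines.

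The direction between the lines was nearly uniform. Of the 77 differences, 75 (97.4%) were above 0, against 49.4% of all probe sets, with a median of 0.21 over the 77 and -0.00 over all probe sets. All line1135 arrays lay above all line774 arrays for 24 of the 77 (31.2%, against 8.93%) and below them for 0 (against 9.97%), and 26 of the 77 passed at an unadjusted p under 0.05 (33.8%, against 14.8%). The 2 with a negative difference were ndhF and rps14, at -0.16 ± 0.22 and -0.06 ± 0.13. Without line774 replicate 3 the median was 0.16, and 70 of 77 differences were above 0. The 77 probe sets share the same arrays, so these counts are not independent observations. By the median over the 77 on each array the lines overlapped, with line774 replicate 1 at 0.00 and line1135 replicate 2 at -0.01.

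Other genes had wide differences between the lines that did not pass. psbD read 556, 512 and 543 in line1135 and 429, 387 and 240 in line774, a difference of 0.63 ± 0.18 (adjusted p = 0.118). ndhK read 366, 357 and 365 in line1135 and 290, 253 and 166 in line774, a difference of 0.62 ± 0.16 (adjusted p = 0.0812). In both, the groups did not overlap and line774 replicate 3 was the lowest array. petN, for a small subunit of the cytochrome b6f complex, read 155, 138 and 152 in line1135 and 91.5, 114 and 76.6 in line774 (0.59 ± 0.15, adjusted p = 0.0795). rps16, for a small-subunit ribosomal protein, read 70.5, 108 and 105 in line1135 and 65.1, 62.9 and 45.5 in line774 (0.57 ± 0.16, adjusted p = 0.112).

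The calls of psbC and ndhJ between the lines depended on the arrays used. Of the 77, 5 were higher in line1135 without line774 replicate 1 and 0 without line774 replicate 2. psbC alone passed without line774 replicate 3, WT-control replicate 1 or 2, or line1135 replicate 2 or 3, and without line1135 replicate 1 both calls were lost and rps16 alone passed. Over all alternatives the adjusted p of psbC lay between 0.00356 and 0.0619 and that of ndhJ between 0.0212 and 0.175.

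By functional class, photosynthesis genes and genes of the expression machinery were set side by side, a grouping chosen after the data were seen. In line774, 43 of 44 photosynthesis changes were negative, with a median of -0.19 (39 of 44 and -0.12 without line774 replicate 3), while the 24 probe sets for RNA polymerase and ribosomal proteins split into 11 positive and 13 negative changes with a median of -0.02 (14 and 10, and 0.04, without that array). In line1135, the photosynthesis changes split into 24 positive and 20 negative with a median of 0.02, while 22 of 24 gene-expression changes were positive, with a median of 0.17. The 9 probe sets outside both groups had 7 negative changes in line774. Their median of -0.18 was close to that of the photosynthesis genes (6 negative and -0.13 without line774 replicate 3). Classes followed gene names, so these 9 are not all unrelated to photosynthesis, and they include ycf3. The lowest of the 9 in line774 were ycf4 and accD at -0.36, cemA at -0.26 and ccsA at -0.23. The 2 positive ones were ycf1 at 0.23 and ycf3 at 0.06. In line1135 they had 6 positive and 3 negative changes, with a median of 0.05. Both lines were set against the same WT-control arrays. Taken array by array, the photosynthesis median minus the gene-expression median was -0.14, -0.21 and -0.27 in line774, -0.17, -0.08 and -0.21 in line1135, and 0.07, -0.04 and -0.01 in WT-control. Every array of a line thus lay below every WT-control array in this difference, which has no test here.

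**Figure D3:**
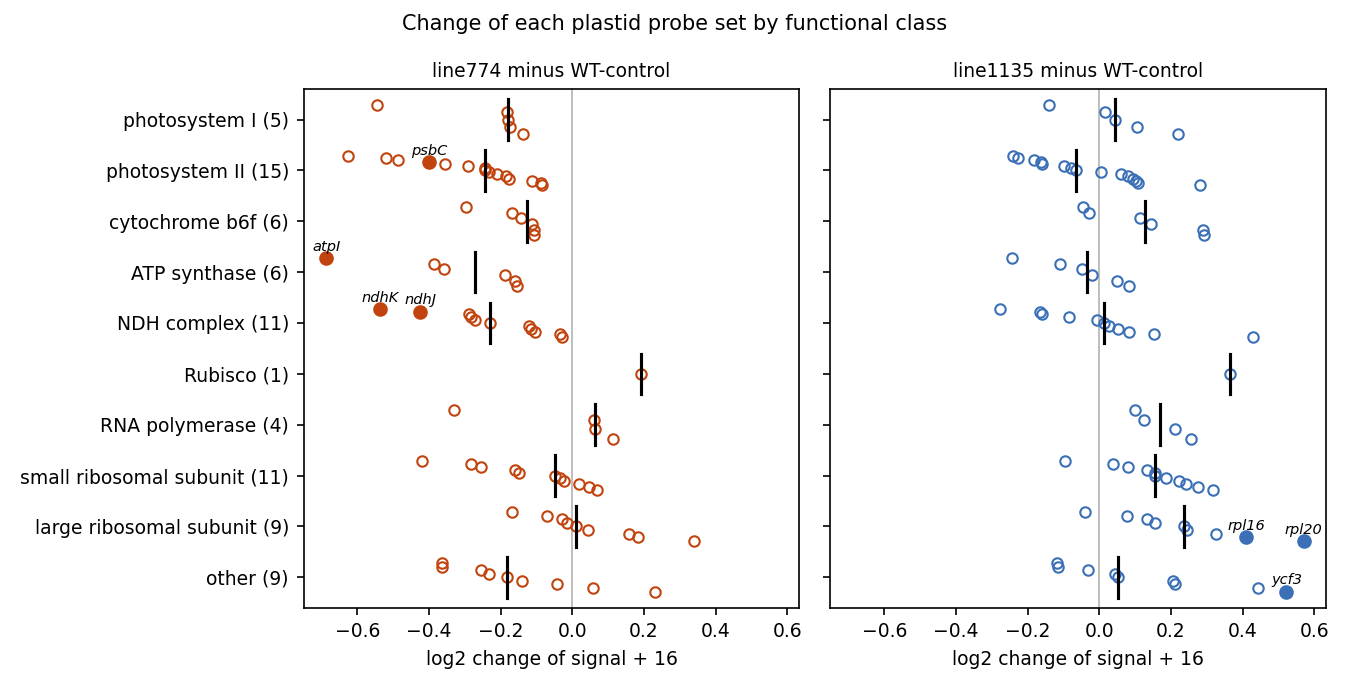
Log2 change of each plastid probe set against WT-control by functional class, line774 left and line1135 right; points are probe sets, filled and named where they passed, bars are class medians, and the class size stands in brackets. In line774 the photosystem, cytochrome b6f, ATP synthase and NDH medians lie between -0.27 and -0.13. In line1135 the RNA polymerase and ribosomal medians lie between 0.16 and 0.24. There the cytochrome b6f median is 0.13 and the single Rubisco probe set is at 0.37. The photosystem, ATP synthase and NDH medians of line1135 lie between -0.06 and 0.04.

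Within the expression machinery, the 4 subunits of the plastid-encoded RNA polymerase did not pass in any comparison. rpoA, for the alpha subunit, read 1670, 1394 and 1565 in line774, 1705, 1459 and 1974 in line1135 and 1268, 1315 and 1719 in WT-control. Its changes were 0.11 ± 0.13 in line774 and 0.26 ± 0.13 in line1135. rpoB, for the beta subunit, had low signals of 24.7, 29.6 and 16.4 in line774, 27.5, 22.8 and 24.8 in line1135 and 19.0, 23.7 and 22.0 in WT-control, which overlapped throughout. The class median was 0.06 in line774 and 0.17 in line1135. rpoC1, for another subunit, went the other way in line774, at -0.33 ± 0.16 (adjusted p = 0.223). It changed by 0.10 ± 0.16 in line1135, and the difference between the lines was 0.43 ± 0.16 (adjusted p = 0.231). rpoC2 changed by 0.06 ± 0.15 in line774 and 0.21 ± 0.15 in line1135.

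Among the 9 probe sets outside these classes, ycf3 in line1135 was the only one to pass. clpP, for the proteolytic subunit of the Clp protease, read 3660, 3423 and 3474 in line774, 3750, 3447 and 4229 in line1135 and 3673, 3802 and 4181 in WT-control, so all line774 arrays lay below WT-control by a small amount (-0.14 ± 0.09, adjusted p = 0.408). accD, for a subunit of the acetyl-CoA carboxylase of fatty acid synthesis, read 410, 322 and 235 in line774, 426, 408 and 442 in line1135 and 447, 384 and 400 in WT-control. Its change in line774 was -0.36 ± 0.15 (adjusted p = 0.16), with line774 replicate 3 the lowest and replicate 1 inside the WT-control range. matK, for an intron maturase, changed by -0.04 ± 0.10 in line774 and 0.21 ± 0.10 in line1135, and ycf2, for a subunit of an import motor, by -0.18 ± 0.15 and 0.21 ± 0.15, and neither gene passed.

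Values were uneven along some operons and more even along others. In line774 the changes were -0.21, -0.18, -0.29 and -0.24 for psbE, psbF, psbL and psbJ of one operon. They were -0.16 and -0.15 for atpB and atpE of another. In the operon of ndhC, ndhK and ndhJ, the line774 changes were -0.10 ± 0.11, -0.54 ± 0.16 and -0.42 ± 0.11, in gene order, against 0.08 at most in line1135. In the psbD and psbC operon they were -0.52 ± 0.18 and -0.40 ± 0.09 in line774 and 0.11 ± 0.18 and 0.10 ± 0.09 in line1135. The operon that joins rps2 to 4 ATP synthase genes ran from -0.15 for rps2 through -0.69 for atpI, -0.39 for atpH and -0.36 for atpF to -0.19 for atpA in line774. In that of psaA, psaB and rps14 the line774 changes were -0.54, -0.18 and -0.03. In that led by psbB they were -0.63 for psbB, -0.23 for psbT, -0.24 for psbH, -0.11 for petB and -0.11 for petD, and -0.49 for psbN, which lies there on the opposite strand. Of the genes in these clusters, psbC, ndhK, ndhJ and atpI passed, all in line774, and differences between neighbouring genes were not tested.

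The large ribosomal protein cluster from rpl23 to rpoA went one way in line1135. All 9 of its measured genes had positive changes there, between 0.08 and 0.41, and rpl16 was the one that passed. In line774 the same 9 ranged from -0.07 to 0.18. rpl22 read 1250, 1293 and 1382 in line1135 and 859, 1058 and 1234 in WT-control, which did not overlap (0.33 ± 0.14, adjusted p = 0.15).

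**Figure D4:**
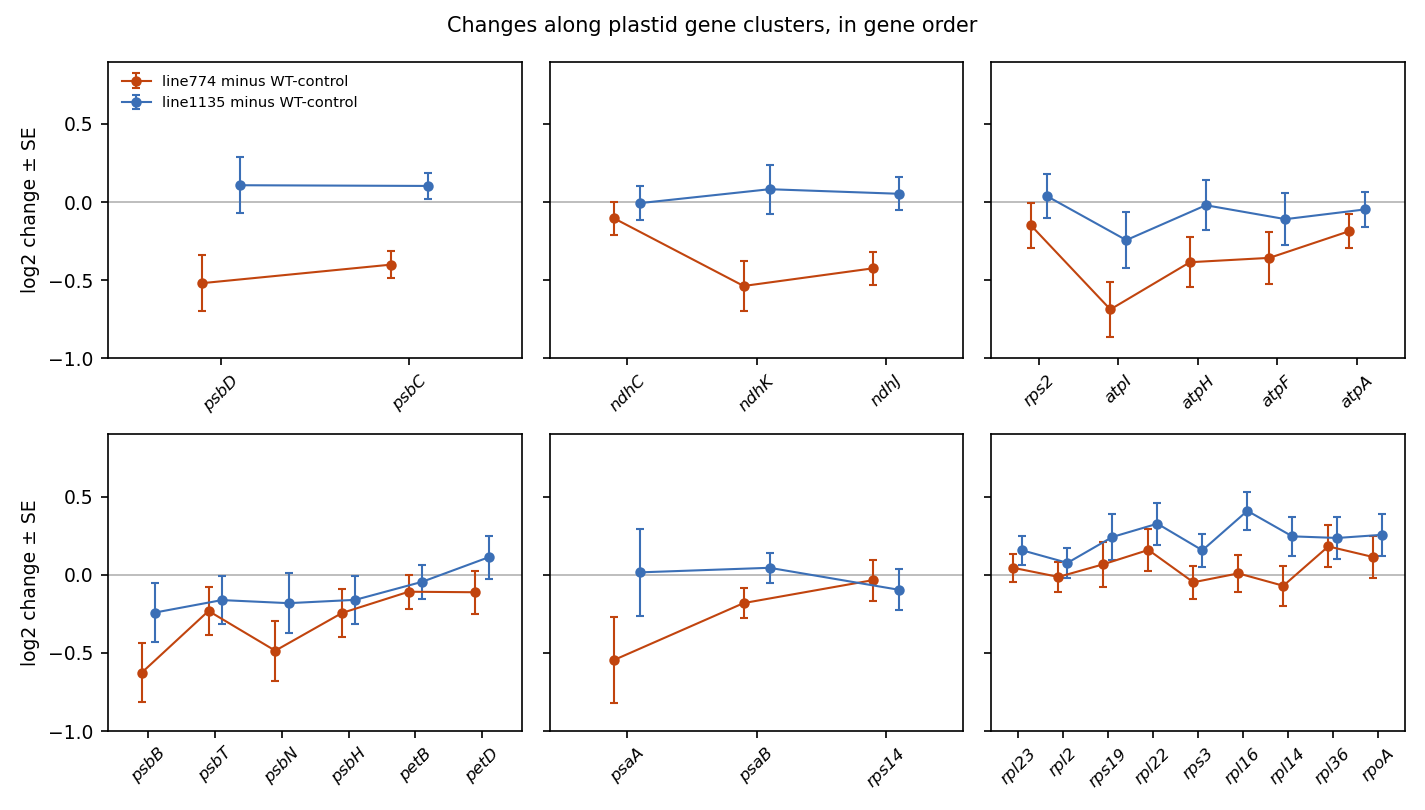
Log2 change against WT-control (± SE) along plastid gene clusters in gene order, line774 and line1135 in separate colours. ndhK and ndhJ lie below ndhC in line774, and the 9 genes from rpl23 to rpoA all lie above 0 in line1135.

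Both rps12 probe sets were measured, and they differed in size but not in sign. The probe set with the larger change in line774 read 760, 767 and 437 there, 986, 883 and 994 in line1135 and 902, 785 and 880 in WT-control. Its change was -0.42 ± 0.18 in line774 and 0.16 ± 0.18 in line1135. The other changed by -0.16 ± 0.18 in line774 and by 0.28 ± 0.18 in line1135, so the order of size turned. The difference between the probe sets was not tested. Neither passed in any comparison.

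Nuclear genes of the same pathways could be followed only in part, because the annotation used here names few of them. Of 49 listed nuclear photosynthesis genes 9 were measured, and 0 passed limma's test in either line (2 in line774 and 1 in line1135 at an unadjusted p under 0.05, where 25.3% and 26.4% of all probe sets passed). In line774, 8 of the 9 changes were negative with a median of -0.14, and in line1135 also 8 of 9 with a median of -0.07. Without line774 replicate 3 the line774 median was -0.15, again with 8 negative. All line774 arrays lay below all WT-control arrays for 6 of the 9 (against 13.7% of all probe sets). All line1135 arrays did so for 2 of the 9 (against 14.4%). PSAN, a subunit on the lumen side of photosystem I, read 2382, 2690 and 2766 in line774, 2485, 2651 and 2803 in line1135 and 3088, 3039 and 3367 in WT-control. Its changes were -0.28 ± 0.09 (adjusted p = 0.0596) and -0.26 ± 0.09 (adjusted p = 0.0745), with both lines below every WT-control array. Of 20 listed nuclear genes of plastid transcription only RPOTMP, a phage-type RNA polymerase found in both plastids and mitochondria, was measured. It had low overlapping signals of 12.8 to 19.5 in line774, 3.29 to 21.4 in line1135 and 6.12 to 20.0 in WT-control. None of the 11 listed plastid RNA processing genes was measured.

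The 23 probe sets with mitochondrial gene names, the other organelle transcripts on the array, had a median change of 0.06 in line774. Of these, 1 was lower by the test (against 6.01% of all probe sets). In line1135 their median was 0.13 with 0 passing, and 19 of 23 changes were above 0 (against 54.1%). All line1135 arrays lay above all WT-control arrays for 6 of the 23 (against 16.5%) and below them for 1 (against 14.4%). Between the lines their median was 0.07, and 17 of 23 differences were above 0. Without line774 replicate 3 that median was 0.02, with 12 differences above 0 and 11 below. RCA, for Rubisco activase and the one measured of 6 green tissue markers, read 5740 to 5984 in line774, 5807 to 6608 in line1135 and 5187 to 6439 in WT-control. The summed signal of the 4 measured of 6 root markers was 2471 to 3556 in line774, 2762 to 3571 in line1135 and 3193 to 3730 in WT-control, nearly all of it from PYK10, a root beta-glucosidase. PYK10 alone read 2320 to 3388 in line774, 2690 to 3429 in line1135 and 3023 to 3546 in WT-control. PRX44, a root peroxidase, was lower in line1135 (-0.99 ± 0.21, adjusted p = 0.011). EXPA7 and EXPA18, expansins of root hairs, had low signals, with changes of 0.49 ± 0.16 (adjusted p = 0.0808) and 0.20 ± 0.20 in line774 and of 0.16 ± 0.16 and -0.37 ± 0.20 in line1135. None of the 3 seed markers was measured. The part of the mix of tissues in the plastid changes was not tested.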

How the data were processed

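RNA of 9 whole-plant samples was hybridised to 1 ATH1 array each. The authors deposited a linear intensity for every probe set. The submitters' processing notes name MAS5 and GCOS without a version. Each deposited intensity column has a 2% trimmed mean near 100. Groups came from the sample titles.

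After 64 control probe sets were left out of 22810, log2(signal + 16) was fitted with 1 mean per group over all 9 arrays in limma 3.58.1 under R 4.3.3 (lmFit, eBayes with an intensity trend, 6 residual degrees of freedom), without a filter. P-values were adjusted over 22746 probe sets in each of 3 comparisons. The fit was run on simulated data as a check of the code, and that outcome bears on no result here. Gene names came from the platform annotation, checked against the RefSeq gene table; no coordinates or sequences were used.

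The members, classes, operons and lists were chosen with earlier results of these data known. Values per array were named for members that passed (or the 6 with the lowest p), the brightest probe set of each class, and psbA, rbcL, rpoB, clpP, accD, matK, ycf1 and ycf2; psaA, rps12, ndhF, rps14, PSAN and the operon neighbours were added after their values were seen. The alternatives changed the offset (1 or 64), dropped probe sets under the 25th or 50th percentile of mean signal, or used quantile normalization, 2 median scalings, no trend, only the groups compared, the replicate block, a 2-fold minimum, a stricter adjusted p of 0.01, or 1 array fewer. Figures were drawn with matplotlib 3.10.9.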

Additional observations from a re-analysis of the deposited data

Results flagged for a closer look

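The direct comparison of the lines singled out psbC and ndhJ, whose changes from WT-control differed between line1135 and line774. The difference, line1135 minus line774, was 0.50 on the log2 scale for psbC (higher in 3 of 3 line1135 arrays than in any line774 array) and 0.48 for ndhJ (likewise 3 of 3), by limma's test over all probe sets. Groups of 3 arrays are too small for the test of single outlying samples.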

How the results depend on the processing

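For transcripts lower in line774 than in WT-control, the 4 calls became 7 with either percentile filter, 2 without the intensity trend, 1 with only both groups compared, and 0 at 2-fold or at an adjusted p under 0.01, and 1 to 12 when single arrays were left out. For those higher in line1135 than in WT-control, the 3 calls became 0 without the trend, at 2-fold or at an adjusted p under 0.01, and 0 to 4 without single arrays. Between line1135 and line774, the 2 calls became 5 and 4 with the 25th and 50th percentile filters, 1 with an offset of 64, quantile normalization or no trend, 0 with only both groups, at 2-fold or at an adjusted p under 0.01, and 0 to 5 without single arrays. With the replicate number as a block the counts were 4, 3 and 2, but in line1135 rpl16 lost its call (adjusted p = 0.0659). Same-numbered arrays of different groups correlated at 0.03 to 0.09 in their deviations from the group means, and differently numbered ones at -0.10 to 0.06. Whether the numbers pair the samples was not tested. The median over the 77 ran from -0.26 to -0.09 in line774, 0.04 to 0.13 in line1135 and 0.16 to 0.31 between the lines. Among the named genes, signs turned only for changes that had not passed. In line774 they were rpl16 (-0.034) and rps4 (-0.026) with median scaling, the same genes (-0.037 and -0.030) with scaling on the other probe sets, and rpl2 (0.066) and rpoB (-0.0053) with quantile normalization. In line1135 they were ndhD (-0.028) and psbA (-0.0050) with quantile normalization and psbA with the scalings (-0.015 and -0.015), and between the lines petB (-0.037) with quantile normalization. Without single arrays, the line774 changes ran from -0.066 to 0.24 for ycf3, -0.085 to 0.17 for rpl16, -0.011 to 0.34 for rbcL, -0.24 to 0.066 for psbM, -0.053 to 0.093 for rps4, -0.079 to 0.045 for rpl2, -0.047 to 0.20 for rpoB and -0.13 to 0.049 for matK. Those of line1135 ran from -0.028 to 0.16 for ndhJ, -0.015 to 0.19 for psbD, -0.12 to 0.040 for petB, -0.045 to 0.14 for atpB, -0.026 to 0.096 for ndhD, -0.11 to 0.038 for clpP and -0.091 to 0.13 for psbA. Differences between the lines ran from -0.014 to 0.15 for petB and -0.072 to 0.17 for rpoB. The causes were not tested, and signals near background limit low probe sets such as atpI and rpoB.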
